A study of Rattus norvegicus with 4 samples.

Results

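The enzymes and proteins that remove peroxides and superoxide, make and spend glutathione, and keep protein thiols reduced were examined in rat articular cartilage and rat xiphoid cartilage. Members were taken from the gene table by symbol. They were the superoxide dismutases, catalase, glutathione peroxidases, peroxiredoxins, thioredoxins and their reductases, glutaredoxins, glutathione transferases and glutathione-making enzymes, with Nqo1, the heme oxygenases, Srxn1, Txnip, Selenop, Keap1, Nfe2l2 and Nfe2l3. The rule matched 59 of the 13554 genes in the table. Articular cartilage, the smooth lining of joint surfaces, and xiphoid cartilage, the lower tip of the sternum, were each measured in 2 RNA sequencing libraries from Sprague-Dawley rats aged 8 to 10 weeks. Beyond strain and age, the labels give no genotype, treatment, sex or joint, and they do not name the animals or pools behind each library. The p-values therefore reflect only how far these samples vary, and that variation may be technical. Totals ranged from 7351006 to 8434820 estimated read counts per library. All 11 measured chondrocyte markers, Col2a1, Acan and Sox9 among them, were detected in both tissues, with summed levels of 132430.3 and 111123 CPM in articular and 34229 and 31353 CPM in xiphoid cartilage.

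Cells form superoxide and hydrogen peroxide in respiration, protein folding and other oxidations. Superoxide dismutases turn superoxide into hydrogen peroxide, which catalase, glutathione peroxidases and peroxiredoxins then reduce. The peroxidases draw their electrons from NADPH by way of glutathione or thioredoxin, and glutathione transferases couple glutathione to reactive lipids and foreign compounds. The transcription factor NRF2, encoded by Nfe2l2 and held down by Keap1, binds the antioxidant response element near many of these genes. Chondrocytes live in a matrix with few vessels, and extracellular superoxide dismutase is known as an abundant antioxidant of cartilage matrix.

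Most of the members that differed were lower in articular cartilage, and the largest differences lay among the glutathione transferases. Gstm2, Mgst1, Gstm7 and Gsta1 transcripts were each at least 7.87-fold lower in articular cartilage, and Sod3, Cat, Prdx6, Txnip and Nqo1 were 3.02-fold to 5.08-fold lower. Articular cartilage carried more Hmox1, Gclc, Gpx2 and Srxn1 transcript. Of the 59 members, 55 passed the filter on low counts. With edgeR's quasi-likelihood test and a threshold of 0.05 on p adjusted over 11202 genes (Benjamini-Hochberg), 4 were higher in articular cartilage, against a background of 25.0% of all genes tested. A further 29 were higher in xiphoid cartilage, against a background of 24.5%, and 22 did not pass. As shares of the 55 members these were 7.27% and 52.7%. The median log2 fold change was -0.52 for the tested members and -0.02 for all genes tested. These counts describe the members and carry no test of their own. Gstm2 passed the filter, a minimum near 1.24 CPM in 2 libraries, through its xiphoid libraries alone.

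With a fitted fold above 2, 3 members were called toward articular and 17 toward xiphoid cartilage, where 15.6% and 13.6% of all genes tested were. None of these 20 lost its call in any of the 14 alternative settings. All 10 called members that lost theirs in at least 1 setting had a fold below 2 and were higher in xiphoid cartilage. Settings that omit a library leave its tissue with a lone library assumed to vary like the other tissue. Their adjusted p are therefore not read as support for a call. Together the 59 members held 0.5% and 0.524% of all counts in articular and 0.82% and 0.841% in xiphoid cartilage. Below, levels are CPM, that is counts scaled by library size with TMM factors, in each library or as mean ± SD with n = 2 per tissue, fold changes are articular over xiphoid, and a negative log2 fold change means lower in articular cartilage. CPM are not corrected for transcript length, so levels are not compared between genes. A gene's share of summed CPM is compared only between tissues and does not rank it among genes.

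**Figure D1:**
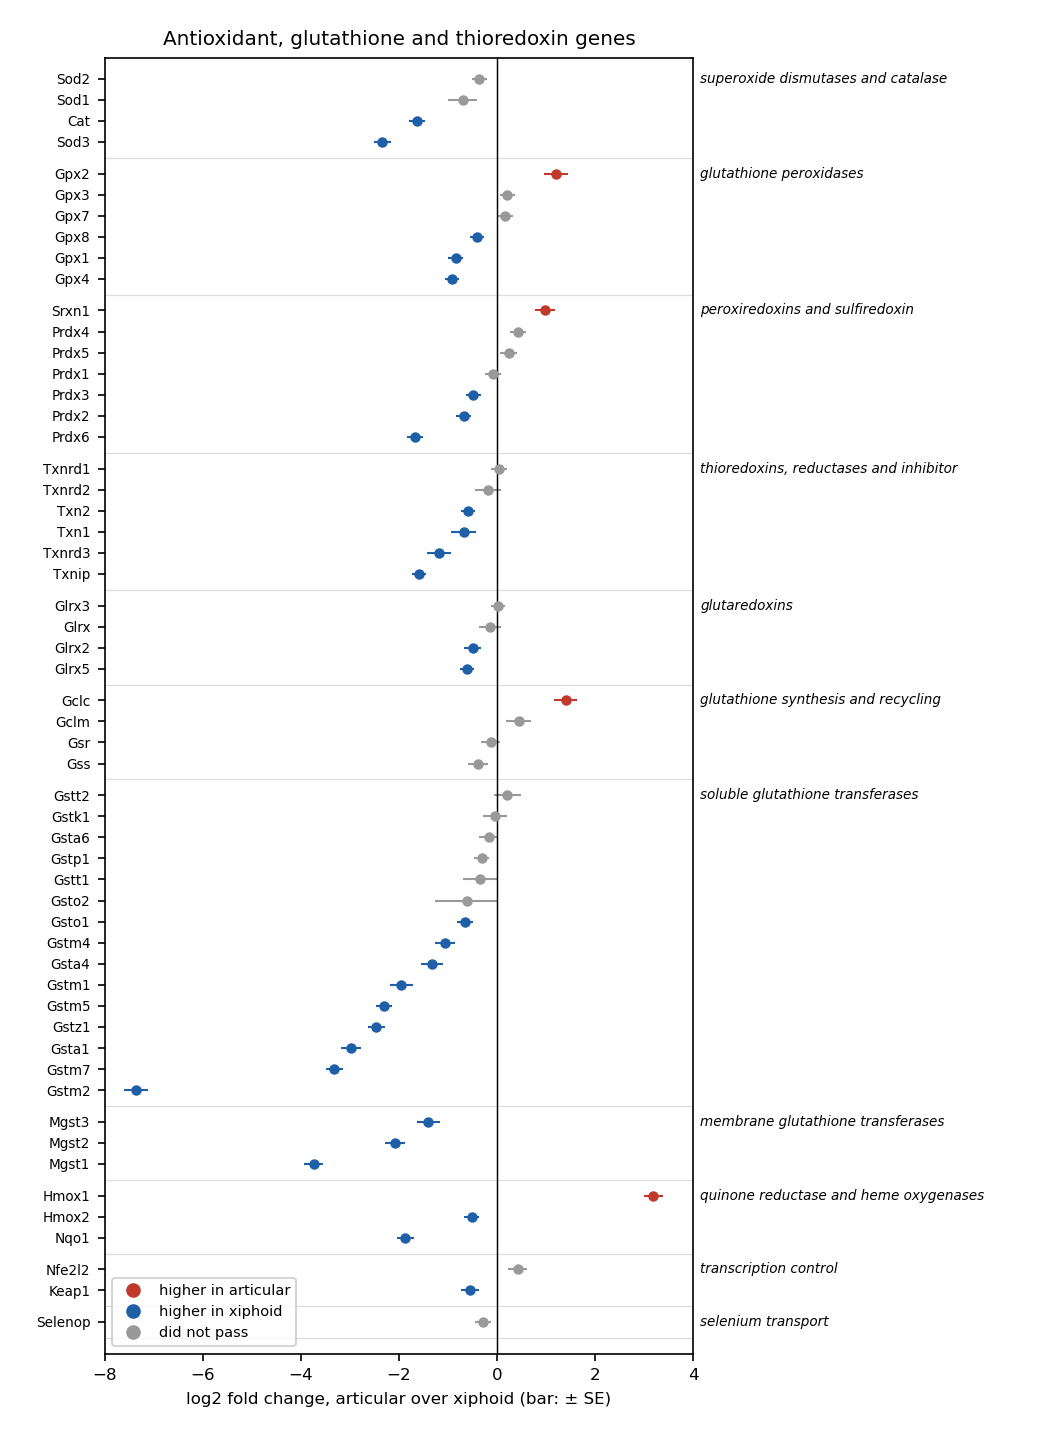
Log2 fold change of articular over xiphoid cartilage (horizontal axis) for the 55 tested members, grouped by role, with bars of ± 1 standard error. Red points were higher in articular and blue points higher in xiphoid cartilage with adjusted p below 0.05, and grey points did not pass. Gstm2 lies farthest to the left at -7.37 and Hmox1 farthest to the right at 3.19.

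Dissected cartilage holds other cells, and markers of several of them differed between the tissues in the same libraries. Summed erythroid markers were at 4636 and 4266 CPM in the articular libraries and 438 and 411 CPM in the xiphoid ones, with 14 of 14 measured markers higher in articular cartilage. Osteoclast markers were at 1408 and 1429 CPM in the articular libraries and 155 and 145 CPM in the xiphoid ones, where 3 of 8 (Oscar, Calcr and Atp6v0d2) had no count. Neutrophil markers were at 272 and 262 against 89.3 and 110.4 CPM, with 7 of 15 at 0 in xiphoid cartilage, and macrophage markers at 519 and 587 against 319 and 346 CPM, with 3 of 12 higher in each tissue and none at 0 in either. Osteoblast and osteocyte markers were at 8844 and 8101 CPM in articular against 5979 and 6511 CPM in xiphoid cartilage, with 8 of 9 higher in articular cartilage and Phex and Sost at 0 in xiphoid cartilage. B cell markers were at 62.2 and 57.2 against 14.2 and 15.6 CPM, with 8 of 9 tested higher in articular cartilage and 5 of 10 at 0 in xiphoid cartilage. Other lists were higher in xiphoid cartilage. Skeletal muscle markers were at 324 and 257 CPM in the articular libraries and 11397 and 11506 CPM in the xiphoid ones, with 18 of 19 higher in xiphoid cartilage and Myh2 and Myh7 at 0 in articular cartilage. Adipocyte markers were at 122 and 106 against 4729.6 and 4064 CPM, with 14 of 14 higher in xiphoid cartilage and Lep at 0 in articular cartilage. Fibroblast and perichondrium markers were at 2011 and 2129.7 against 18523 and 17260.0 CPM, with 9 of 13 higher in xiphoid and 1 in articular cartilage. Their part in the results below was not tested, and in such bulk samples fewer cells of a type and less RNA per cell cannot be told apart.

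Extracellular superoxide dismutase and catalase were lower in articular cartilage. Sod3, the secreted dismutase that binds matrix heparan sulfate, was at 143 and 169 CPM in the articular libraries, against 718 and 867 CPM in the xiphoid libraries. The tissues did not overlap, and Sod3 was 5.08-fold lower in articular cartilage (log2 fold change of -2.34 with an SE of 0.17, adjusted p = 2.99e-07). Cat, the catalase of peroxisomes, was at 44.1 and 53.7 CPM in the articular libraries, against 141 and 161 CPM in the xiphoid ones. Both articular libraries lay well below both xiphoid libraries (log2 fold change of -1.63 with an SE of 0.16, adjusted p = 6.53e-06). The intracellular dismutases did not pass. Sod2, the mitochondrial manganese enzyme, was at 73.9 ± 2.42 CPM in articular cartilage and 94.7 ± 6.1 CPM in xiphoid cartilage (adjusted p = 0.0648). Sod1, the copper and zinc enzyme of the cytosol, was at 281 and 147 CPM in the articular libraries and 402 and 293 CPM in the xiphoid ones. Replicate 1 was the higher library in each tissue, and the nearest libraries of the tissues almost met. The log2 fold change of Sod1 was -0.70 (SE 0.30, adjusted p = 0.0908). It was -1.24 without articular replicate 1 and -0.89 without xiphoid replicate 2. It was -0.31 without articular replicate 2 and -0.44 without xiphoid replicate 1.

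The glutathione peroxidases were split. Gpx2, an epithelial type cytosolic selenoenzyme, was at 15.4 and 13.7 CPM in the articular libraries, against 6.11 and 6.58 CPM in the xiphoid libraries. It was 2.3-fold higher in articular cartilage without overlap (adjusted p = 0.00177). Gpx1, the main cytosolic enzyme, was at 406 and 366 CPM in the articular libraries and 718 and 668 CPM in the xiphoid ones (log2 fold change of -0.84 with an SE of 0.15, adjusted p = 4.93e-04). Gpx4, which reduces lipid peroxides in membranes and guards against ferroptosis, was at 314 and 332 CPM in the articular libraries and 602 and 621 CPM in the xiphoid ones (log2 fold change of -0.92 with an SE of 0.14, adjusted p = 2.04e-04). For both enzymes every articular library lay below every xiphoid library. Gpx3, the secreted plasma enzyme, was at 1044 and 1198 CPM in the articular libraries and 928 and 1006 CPM in the xiphoid ones, a log2 fold change of 0.21 (SE 0.15) that did not pass (adjusted p = 0.266). It made up 20.8% and 22.9% of the members' summed CPM in articular and 11.4% and 11.9% in xiphoid cartilage. Gpx7 and Gpx8 are peroxidases of the endoplasmic reticulum. Gpx7 was at 84.2 ± 4.58 CPM in articular libraries and 74.8 ± 5.18 CPM in xiphoid libraries and did not pass (adjusted p = 0.374). Gpx8 was 1.33-fold lower in articular cartilage (adjusted p = 0.0328), a call lost in 6 of 14 alternatives. With all libraries kept, these were DESeq2 (adjusted p = 0.0639), upper-quartile factors (0.0566) and glmTreat at a fold of 1.5 (0.985). The remaining losses came from fits that omit a library, with log2 fold changes of -0.38, -0.44 and -0.35.

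The promoter of Gpx2 is shown because it held a match to the core of the antioxidant response element, the motif TGACNNNGC, searched on both strands. The RefSeq window (assembly GRCr8) runs from 250 bases before to 50 bases after the annotated start of the gene, at chr6:101229984-101230283 on the minus strand. It is written 5′ to 3′ in the direction of the gene, with the match in capitals. The match lies on the other strand, reads TGACTTAGC there, and begins at position -13 relative to the start.
Gpx2: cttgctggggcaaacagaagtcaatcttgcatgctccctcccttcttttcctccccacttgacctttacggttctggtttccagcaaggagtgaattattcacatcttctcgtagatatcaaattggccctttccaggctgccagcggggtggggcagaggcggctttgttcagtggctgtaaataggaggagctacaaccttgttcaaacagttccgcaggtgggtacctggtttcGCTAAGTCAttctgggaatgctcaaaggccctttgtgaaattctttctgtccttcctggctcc
RefSeq windows were matched for 50 of the 59 members, some with several starts, and 14 of these members held the motif. Among these were Gclm, Gstp1, Nfe2l2, Prdx1, Prdx4, Prdx5, Sod2 and Txnrd1, which did not pass the expression test. The windows of Gclc, Srxn1 and Nqo1, which did pass, held no match. Among windows, 23.7% of the members' 59 held it, against 12.1% of all 33469 promoters and 15% of the windows of genes tested here. A match is a run of letters and shows no binding.

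Among the peroxiredoxins, thiol enzymes that take up much of the cell's hydrogen peroxide, Prdx6 differed most. Prdx6, which also repairs oxidised membrane lipids, was at 49.5 and 57.8 CPM in the articular libraries, against 168 and 176 CPM in the xiphoid ones. It was 3.21-fold lower in articular cartilage, with each pair of libraries close together (log2 fold change of -1.68 with an SE of 0.16, adjusted p = 2.84e-06). Prdx2, the peroxiredoxin best known from red cells, was at 168 and 195 CPM in the articular libraries and 277 and 307 CPM in the xiphoid ones (log2 fold change of -0.68 with an SE of 0.15, adjusted p = 0.0023). Erythroid markers, given above, were higher in the articular libraries, and the part of red cells in the Prdx2 level was not tested. Prdx3, the mitochondrial enzyme, was 1.39-fold lower in articular cartilage (adjusted p = 0.0251), a call lost in 4 of 14 alternatives. With all libraries kept, these were DESeq2 (adjusted p = 0.0716) and glmTreat at a fold of 1.5 (0.816). The remaining losses came from fits that omit a xiphoid library, with log2 fold changes of -0.42 and -0.51. Prdx1, the cytosolic form, was at 345 and 422 CPM in the articular libraries and 381 and 428 CPM in the xiphoid ones. These libraries overlapped, and the log2 fold change was -0.08 (SE 0.16, adjusted p = 0.705). Prdx5 was at 109 ± 20.6 CPM in the articular libraries and 92.4 ± 3.91 CPM in the xiphoid libraries and did not pass (adjusted p = 0.258). Its log2 fold change was 0.42 without articular replicate 2 and 0.03 without articular replicate 1.

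Sulfiredoxin lay on the other side, and the peroxiredoxin of the secretory pathway did not pass. Srxn1, which restores peroxiredoxins that peroxide has overoxidised, was at 28.9 and 25.3 CPM in the articular libraries, against 15.2 and 12.3 CPM in the xiphoid libraries. It was 1.97-fold higher in articular cartilage without overlap (log2 fold change of 0.98 with an SE of 0.21, adjusted p = 0.00196). Prdx4, the form of the endoplasmic reticulum, was at 164 and 201 CPM in the articular libraries and 119 and 152 CPM in the xiphoid ones. It missed the threshold narrowly (log2 fold change of 0.43 with an SE of 0.17, adjusted p = 0.0524). The log2 fold change of Prdx4 was 0.57 without articular replicate 1 and 0.62 without xiphoid replicate 2. It was 0.27 without articular replicate 2 or without xiphoid replicate 1.

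In the thioredoxin system, the inhibitor Txnip differed most. Txnip, which binds reduced thioredoxin and also curbs glucose uptake, was at 249 and 279 CPM in the articular libraries, against 764 and 829 CPM in the xiphoid ones. It was 3.02-fold lower in articular cartilage (log2 fold change of -1.59 with an SE of 0.15, adjusted p = 3.47e-06). Txnrd3, a reductase with an added glutaredoxin domain known for its level in testis, was at 6.94 and 6.29 CPM in articular cartilage and 15.5 and 14.5 CPM in xiphoid cartilage (log2 fold change of -1.18 with an SE of 0.25, adjusted p = 0.00175). The libraries of neither gene overlapped between tissues. The other reductases overlapped between tissues. Txnrd1, of the cytosol, was at 37.5 ± 1.8 CPM in articular libraries and 36.6 ± 0.798 CPM in xiphoid libraries (log2 fold change of 0.04 with an SE of 0.16, adjusted p = 0.878), and Txnrd2, of mitochondria, at 9.3 ± 2.25 and 10.5 ± 0.384 CPM (adjusted p = 0.606). Mitochondrial thioredoxin Txn2 was at 87.8 and 75.4 CPM in the articular libraries and 127 and 119 CPM in the xiphoid ones (adjusted p = 0.00688), with an adjusted p of 0.0799 without xiphoid replicate 1. Cytosolic thioredoxin Txn1 was at 30.5 and 21.6 CPM in the articular libraries and 52.7 and 30.7 CPM in the xiphoid libraries, so that the nearest libraries all but touched. Its call (log2 fold change of -0.68 with an SE of 0.26, adjusted p = 0.0465) was lost in 8 of 14 alternatives, among them without xiphoid replicate 1 (log2 fold change -0.22, adjusted p = 0.583) and without articular replicate 2 (-0.46, adjusted p = 0.0518).

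The glutaredoxins, small enzymes that use glutathione to reduce protein thiols, differed little. Glrx5, which serves iron-sulfur cluster assembly in mitochondria, was at 54.4 and 58.6 CPM in articular cartilage and 85.6 and 86.3 CPM in xiphoid cartilage (log2 fold change of -0.61 with an SE of 0.15, adjusted p = 0.00524). Glrx2, also mitochondrial, was 1.41-fold lower in articular cartilage (adjusted p = 0.036). That call was lost in 6 of 14 alternatives. With all libraries kept, these were DESeq2 (adjusted p = 0.0987), upper-quartile factors (0.0518) and glmTreat at a fold of 1.5 (0.739). The remaining losses came from fits that omit a library, with log2 fold changes of -0.45, -0.36 and -0.60. Glrx3, a cytosolic iron-sulfur carrier, was at 76.7 and 81.8 CPM in articular libraries and 78.9 and 77.1 CPM in xiphoid libraries (log2 fold change of 0.02 with an SE of 0.15, adjusted p = 0.916). The articular libraries of Glrx3 enclosed the xiphoid ones. Libraries also overlapped for Glrx, the classical cytosolic form, at 15 ± 1.63 CPM in the articular libraries and 16.5 ± 2.43 CPM in the xiphoid libraries (adjusted p = 0.629).

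Among the enzymes that make and recycle glutathione, only Gclc passed. Gclc, the catalytic subunit of the rate-limiting ligase, was at 17.8 and 21.1 CPM in the articular libraries, against 7.41 and 7.26 CPM in the xiphoid libraries. It was 2.64-fold higher in articular cartilage without overlap (log2 fold change of 1.40 with an SE of 0.23, adjusted p = 3.44e-04). Its partner Gclm, the modifier subunit, was at 9.09 and 10.8 CPM in articular cartilage and 7.53 and 7.12 CPM in xiphoid cartilage (log2 fold change of 0.44 with an SE of 0.26, adjusted p = 0.191). Whether the change of Gclc exceeded that of Gclm was not tested. Gss, which adds the last amino acid, was at 17.4 ± 1.14 CPM in articular libraries and 22.7 ± 1.93 CPM in xiphoid libraries (adjusted p = 0.123). Gsr, which reduces oxidised glutathione, was at 21.9 and 22.3 CPM in the articular libraries and 27.2 and 21.2 CPM in the xiphoid libraries, where the xiphoid libraries enclosed the articular ones (adjusted p = 0.611). The summed CPM of these 4 genes were 67 and 70.8 in articular and 66.2 and 57 in xiphoid cartilage.

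The soluble glutathione transferases stood at 359.7 and 341 summed CPM in articular and 1033 and 1053 in xiphoid cartilage. Of 18 in the table, 15 were tested, 9 were lower in articular cartilage, none was higher and 6 did not pass. All 5 tested transferases of the mu class were among the 9, and with the untested Gstm6 their summed CPM were 77.6 and 74.8 in articular and 556 and 594 in xiphoid cartilage. In the RefSeq annotation the mu class genes lie in a single stretch of chromosome 2 that holds 9 protein-coding genes, all named Gstm. These copies resemble each other closely, as do genes of the alpha and theta classes, so reads can be split between them and the value of each single gene is uncertain.

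Gstm2 showed the largest change of all members. It was at 1.08 and 0.899 CPM in the articular libraries, 9 and 7 counts, against 151 and 182 CPM in the xiphoid libraries. That was a 166-fold lower level in articular cartilage (log2 fold change of -7.37 with an SE of 0.25, adjusted p = 5.26e-10). Gstm7 was at 16.6 and 14.4 CPM in the articular libraries, against 147 and 163 CPM in the xiphoid ones (log2 fold change of -3.32 with an SE of 0.17, adjusted p = 1.82e-08). Both genes thus showed wide gaps between tissues and little spread within them. Gstm5 was at 38.8 and 37 CPM in the articular libraries and 201 and 176 CPM in the xiphoid ones (log2 fold change of -2.31 with an SE of 0.16, adjusted p = 1.92e-07), and Gstm1 at 9.69 and 11.6 against 33.4 and 48.8 CPM (log2 fold change of -1.95 with an SE of 0.23, adjusted p = 2.51e-05). Gstm4, at an end of the stretch, was at 11.5 and 10.9 CPM in articular cartilage and 22.8 and 24 CPM in xiphoid cartilage (log2 fold change of -1.06 with an SE of 0.21, adjusted p = 0.00106). Gstm6, with no count in the articular libraries and 4 and 2 counts in the xiphoid libraries, was not tested.

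**Figure D2:**
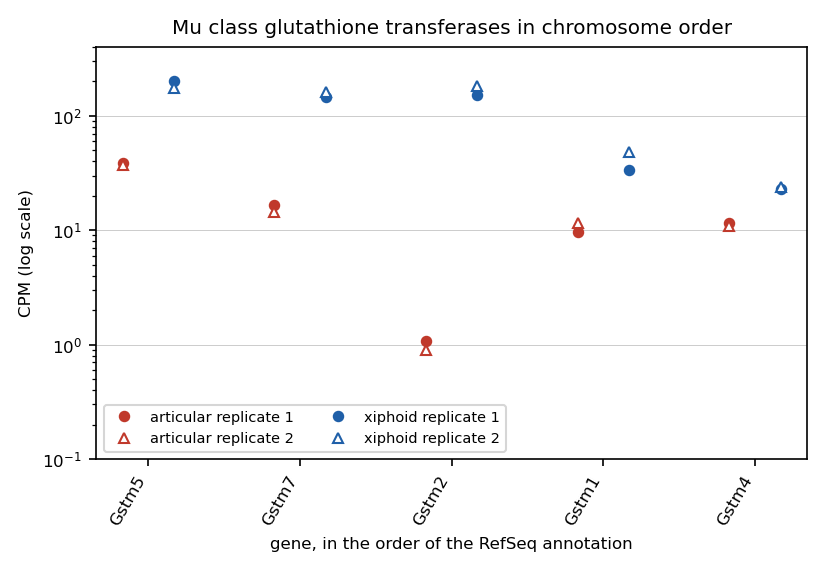
CPM on a log axis of the 5 tested mu class transferases in each library, in the order in which RefSeq places them on chromosome 2, with articular libraries in red left of xiphoid libraries in blue. All articular libraries lie below all xiphoid libraries, with the widest gap at Gstm2 and the narrowest at Gstm4.

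The promoters of Gstm5 and Gstm7 are shown because, of the 6 mu class genes, only their windows held the antioxidant response element core. As before, the windows are from RefSeq (GRCr8) and matches are in capitals, here all on the strand of the gene. The Gstm5 window, chr2:198219519-198219818 on the plus strand, held TGACCACGC at position -113 and TGACCCCGC at position -53 relative to the start. The Gstm7 window, chr2:198260270-198260569 on the minus strand, held TGACACAGC at position -14.
Gstm5: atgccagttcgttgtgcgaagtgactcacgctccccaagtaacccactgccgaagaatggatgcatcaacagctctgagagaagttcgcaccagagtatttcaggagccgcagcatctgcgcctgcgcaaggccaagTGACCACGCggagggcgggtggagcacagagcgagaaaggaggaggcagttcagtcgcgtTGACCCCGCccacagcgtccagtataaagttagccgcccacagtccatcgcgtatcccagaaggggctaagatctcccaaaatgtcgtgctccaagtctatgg
Gstm7: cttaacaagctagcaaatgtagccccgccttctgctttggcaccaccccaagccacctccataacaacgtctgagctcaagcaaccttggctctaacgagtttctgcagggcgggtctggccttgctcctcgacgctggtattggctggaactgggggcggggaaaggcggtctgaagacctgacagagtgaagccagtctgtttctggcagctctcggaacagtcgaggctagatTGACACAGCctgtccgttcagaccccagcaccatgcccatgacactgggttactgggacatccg
The window of Gstm2 did not hold these letters, which says nothing of other stretches of its sequence.

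The alpha and zeta classes also differed. Gsta1, an alpha class enzyme that detoxifies lipid peroxides, was at 9.81 and 6.68 CPM in the articular libraries, against 69 and 61.2 CPM in the xiphoid libraries. It was 7.87-fold lower in articular cartilage (log2 fold change of -2.98 with an SE of 0.21, adjusted p = 3.18e-07). Gsta4, which conjugates the lipid breakdown product 4-hydroxynonenal, was at 8.37 and 10.5 CPM in articular libraries and 23.5 and 23.8 CPM in xiphoid libraries (log2 fold change of -1.33 with an SE of 0.22, adjusted p = 3.34e-04). Gstz1, which also acts in tyrosine breakdown, was at 15.2 and 12.3 CPM in the articular libraries and 75.8 and 76.3 CPM in the xiphoid libraries (log2 fold change of -2.46 with an SE of 0.18, adjusted p = 3.50e-07). None of these 3 genes overlapped between tissues. The Gstz1 window, not printed, held TGACGGGGC on the other strand at position -231, and the Gsta4 window held no match. The promoter window of Gsta1, chr9:31216483-31216782 on the minus strand, held TGACTTTGC 31 bases into the transcribed sequence.
Gsta1: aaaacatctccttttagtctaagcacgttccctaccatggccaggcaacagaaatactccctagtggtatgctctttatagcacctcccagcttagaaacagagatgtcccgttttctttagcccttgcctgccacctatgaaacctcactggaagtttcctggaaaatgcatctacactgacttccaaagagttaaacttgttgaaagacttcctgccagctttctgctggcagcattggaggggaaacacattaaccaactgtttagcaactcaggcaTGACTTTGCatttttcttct

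Other soluble transferases differed less or did not pass. Gsto1, an omega class enzyme with thiol transferase activity, was 1.58-fold lower in articular cartilage (34.9 ± 0.874 against 55.3 ± 0.928 CPM, adjusted p = 0.00409). Gstp1, the pi class enzyme found in most tissues outside liver, was at 165 and 142 CPM in articular cartilage and 199.8 and 182 CPM in xiphoid cartilage. The tissues were apart by a small margin, and Gstp1 did not pass (log2 fold change of -0.31 with an SE of 0.15, adjusted p = 0.1). Its log2 fold change was -0.43 without articular replicate 1 and -0.21 without articular replicate 2. Gstp1 carried 46% and 41.7% of the soluble transferase CPM in articular and 19.3% and 17.3% in xiphoid cartilage. Gsta6, Gstk1 (kappa class), Gstt1, Gstt2 and Gsto2 did not pass, with log2 fold changes between -0.62 for Gsto2 and 0.21 for Gstt2 and adjusted p from 0.441 for Gstt1 to 0.899 for Gstk1. Gstt3 had 3 and 8 counts in articular and 5 and 5 counts in xiphoid cartilage and Gstt4 2 counts in all, both in the second articular library. Neither was tested.

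All 3 microsomal transferases, membrane enzymes of lipid peroxide and eicosanoid metabolism, were lower in articular cartilage. Mgst1, which reduces lipid hydroperoxides, was at 10.6 and 11.3 CPM in the articular libraries, against 131 and 163 CPM in the xiphoid ones. It was 13.4-fold lower in articular cartilage (log2 fold change of -3.74 with an SE of 0.19, adjusted p = 1.30e-08). Mgst2, which can also make leukotriene C4, was at 24.3 and 18.2 CPM in articular libraries and 101 and 79.2 CPM in xiphoid libraries (log2 fold change of -2.08 with an SE of 0.20, adjusted p = 3.32e-06). Mgst3 was at 9.57 and 7.19 CPM in the articular libraries and 22.2 and 22.2 CPM in the xiphoid libraries (log2 fold change of -1.40 with an SE of 0.23, adjusted p = 3.11e-04). In each case both articular libraries lay below both xiphoid libraries. Skeletal muscle, adipocyte and fibroblast markers, given above, were higher in the same xiphoid libraries as these transferases, and their part in these differences was not tested.

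**Figure D3:**
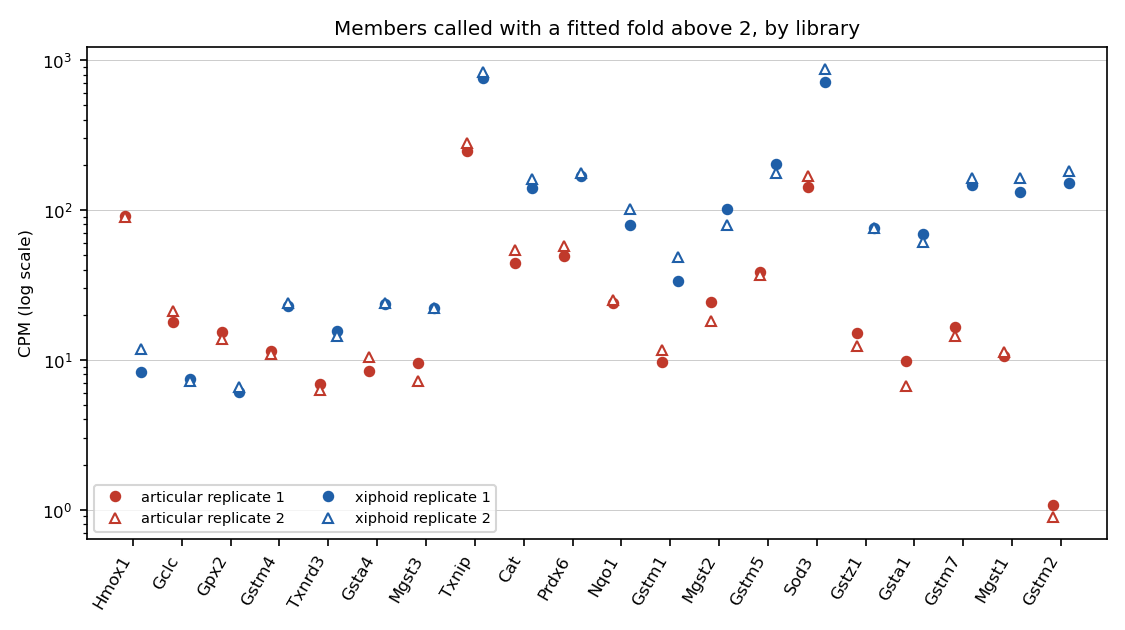
CPM on a log axis of the 20 members that passed with a fitted fold above 2, in each library, ordered by fold change, with articular libraries in red left of xiphoid libraries in blue. Circles are replicate 1 and triangles replicate 2. Hmox1, Gclc and Gpx2 have both articular libraries above both xiphoid libraries, and the other 17 genes show the opposite order.

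The heme oxygenases and Nqo1 parted. Hmox1, the inducible enzyme that degrades heme to biliverdin, iron and carbon monoxide, was at 91.2 and 90.3 CPM in the articular libraries, against 8.23 and 11.8 CPM in the xiphoid libraries. It was 9.11-fold higher in articular cartilage (adjusted p = 9.20e-08, log2 fold change of 3.19 with an SE of 0.20), the largest difference toward this tissue among the members. Hmox1 is also strongly expressed by macrophages that take up red cells. Erythroid and macrophage marker sums were higher in the same libraries, at the values given above. Single macrophage markers were split, with 3 of 12 higher in each tissue and a median log2 fold change of -0.25. The part of these cells in the Hmox1 difference was not tested. Hmox2, the constitutive form, was at 36.8 and 33.1 CPM in articular cartilage and 52.6 and 47.5 CPM in xiphoid cartilage (log2 fold change of -0.52 with an SE of 0.16, adjusted p = 0.0203). The call of Hmox2 was lost in 4 of 14 alternatives. With all libraries kept, these were DESeq2 (adjusted p = 0.0568) and glmTreat at a fold of 1.5 (0.708). The remaining losses came from fits that omit a xiphoid library, with log2 fold changes of -0.43 and -0.57. Nqo1, the quinone reductase used in many studies as a readout of NRF2, was at 24 and 25.2 CPM in the articular libraries, against 78.9 and 101 CPM in the xiphoid libraries. It was 3.65-fold lower in articular cartilage without overlap (log2 fold change of -1.87 with an SE of 0.18, adjusted p = 3.45e-06). Genes known as NRF2 targets therefore lay on both sides, with Hmox1, Gclc and Srxn1 higher and Nqo1 and Gsta1 lower in articular cartilage.

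The regulators themselves differed little. Nfe2l2, which encodes NRF2, was at 32.4 and 43.3 CPM in articular libraries and 26 and 30.5 CPM in xiphoid libraries. The lower articular library lay close to the higher xiphoid library, and Nfe2l2 did not pass (log2 fold change of 0.42 with an SE of 0.20, adjusted p = 0.0935). Its log2 fold change was 0.62 without articular replicate 1 and 0.20 without articular replicate 2. Keap1, the adaptor that sends NRF2 for degradation, was at 71.1 and 52.3 CPM in the articular libraries and 99 and 81.2 CPM in the xiphoid libraries (log2 fold change of -0.55 with an SE of 0.18, adjusted p = 0.0254). That call was lost without articular replicate 2 (-0.34, adjusted p = 0.113) or xiphoid replicate 1 (-0.39, adjusted p = 0.229). Nfe2l3, a related factor, had 1 and 0 counts in articular and 2 and 0 counts in xiphoid cartilage and was not tested. Selenop, the secreted protein that carries selenium between tissues, was at 274 and 348 CPM in the articular libraries and 347 and 412 CPM in the xiphoid ones. Its libraries overlapped and it did not pass (log2 fold change of -0.29 with an SE of 0.16, adjusted p = 0.165). The log2 fold change of Selenop was -0.47 without articular replicate 2 and -0.12 without articular replicate 1.

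Genes around these systems were followed in 6 lists with 153 entries outside the members, of which 144 were in the table and 131 were tested. The test called 32 of them toward articular cartilage and 44 toward xiphoid cartilage, and 55 did not pass, with a median log2 fold change of -0.13. These shares were 24.4% and 33.6%, against 25.0% and 24.5% of all genes tested. In the list of glutathione metabolism, 5 of 20 tested genes (25.0%, the share over all genes) were higher in articular cartilage and 8 (40.0%) in xiphoid cartilage. The 8 became 5 without articular replicate 2 or without xiphoid replicate 1. Anpep, a cell-surface aminopeptidase that can split cysteinylglycine, a product of glutathione breakdown, was at 258 and 303 CPM in articular cartilage and 21.5 and 24 CPM in xiphoid cartilage (log2 fold change of 3.62 with an SE of 0.17, adjusted p = 7.49e-09). Chac1, which cleaves glutathione inside the cell, was at 31.4 ± 1.93 CPM in articular libraries and 7.47 ± 1.07 CPM in xiphoid libraries (adjusted p = 8.65e-06). Ggct, which frees amino acids from gamma-glutamyl dipeptides, was at 44.7 ± 1.08 and 19.5 ± 0.133 CPM (adjusted p = 1.24e-04). On the xiphoid side, Cbs, which starts the route from homocysteine to cysteine, had no count in articular cartilage against 3.21 ± 0.883 CPM in xiphoid cartilage. Set against 3 counts over both articular libraries, it was at least 17-fold lower in articular cartilage (adjusted p = 2.69e-04). Lancl1, a glutathione-binding protein, was 2.92-fold lower (adjusted p = 6.78e-06) and Esd, an S-formylglutathione hydrolase, 1.99-fold lower in articular cartilage (adjusted p = 3.11e-04).

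Enzymes that supply NADPH, the source of electrons for both systems, had 9 of 15 tested genes lower in articular cartilage (against 24.5% of all genes) and 3 higher (against 25.0%). The 9 became 5 without xiphoid replicate 2 and 2 against a fold of 1.5. Me3, a mitochondrial malic enzyme, had 2 counts in all in articular and 341 in xiphoid cartilage, a 174-fold lower share of counts (exact 95% counting interval 47.9 to 1444). Aldh1l1, a folate enzyme that forms NADPH, was at 1.14 ± 1.11 CPM in the articular libraries and 49.1 ± 10.4 CPM in the xiphoid libraries (adjusted p = 9.53e-07). Taldo1, of the pentose phosphate pathway, was at 95.9 ± 1.93 CPM in articular cartilage and 158 ± 2.22 CPM in xiphoid cartilage (adjusted p = 0.00129). In the other direction, Nadk2, the mitochondrial NAD kinase, was 6.97-fold higher in articular cartilage (adjusted p = 1.17e-06), Mthfd2 1.63-fold (adjusted p = 0.00302) and Tkt 1.39-fold (adjusted p = 0.0133). The call of Tkt was lost without xiphoid replicate 1 (adjusted p = 0.0889) or xiphoid replicate 2 (0.157).

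Among partners and further targets of NRF2, 8 of 29 tested genes (27.6%) were higher in articular cartilage and 9 (31.0%) in xiphoid cartilage, shares near those over all genes tested. Fth1, the heavy chain of the iron store ferritin, was at 6317 ± 279.9 CPM in the articular libraries and 3080.0 ± 109 CPM in the xiphoid libraries (adjusted p = 1.40e-04). Cul3, the ubiquitin ligase scaffold that works with Keap1, was 2.65-fold higher (adjusted p = 5.35e-05) and Ptgr1, an alkenal reductase, 2.72-fold higher in articular cartilage (adjusted p = 1.67e-04). Lower in articular cartilage were Ephx1, the microsomal epoxide hydrolase, by 4.68-fold (adjusted p = 2.15e-06), Cbr3, a carbonyl reductase, by 5.05-fold (adjusted p = 1.22e-05), and Aldh3a1, an aldehyde dehydrogenase, by 13.9-fold (0.611 ± 0.32 against 8.8 ± 0.144 CPM, adjusted p = 2.27e-05). Aldh3a1 passed the filter on low counts through the xiphoid libraries alone, as did Cbs, Me3, Dio3 and Maob, so each was tested only because it was high there.

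Among other selenoproteins and selenium handling genes, 2 of 20 tested genes (10.0%) were higher in articular cartilage and 5 (25.0%) in xiphoid cartilage. Over all genes tested these shares were 25.0% and 24.5%. The 2 became 5 with the replicate number as a block. Sepsecs, which forms selenocysteine on its tRNA, was 2.46-fold (adjusted p = 3.84e-04) and Selenot, of the endoplasmic reticulum, 1.8-fold higher in articular cartilage (adjusted p = 0.00101). Selenow, a small selenoprotein abundant in muscle, was at 173 ± 10.4 CPM in articular cartilage and 430.3 ± 59.3 CPM in xiphoid cartilage (adjusted p = 2.30e-05), in libraries whose skeletal muscle markers were also higher. The thyroid hormone deiodinases lay on the same side. Dio3 had 1 count in all in articular and 106 in xiphoid cartilage, a 108-fold lower share of counts (exact 95% counting interval 19 to 4317), and Dio2 was 1.96-fold lower in articular cartilage (adjusted p = 4.19e-04).

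Sources of superoxide and peroxide had 8 of 18 tested genes higher in articular (44.4%) and 5 higher in xiphoid cartilage (27.8%), with a median log2 fold change of 0.59. Over all genes tested the shares were 25.0% and 24.5%. The 8 became 4 with a minimum mean CPM of 5, and the 5 became 3 without xiphoid replicate 2. Of the 8, Duox2 and Nos2 passed the filter through the articular libraries alone, and of the 5, Maob passed it through the xiphoid libraries alone. Ero1a, the oxidase of the endoplasmic reticulum that makes peroxide as it forms disulfides, was at 102 ± 0.387 CPM in articular libraries and 15.8 ± 1.61 CPM in xiphoid libraries (log2 fold change of 2.68 with an SE of 0.17, adjusted p = 9.85e-08). Ero1b, its paralog, was 3.55-fold higher in articular cartilage (adjusted p = 5.59e-04). Rac2, the small GTPase of the phagocyte oxidase, was at 44.6 ± 9.6 CPM in the articular libraries and 4.69 ± 0.148 CPM in the xiphoid libraries (adjusted p = 4.05e-07). Other phagocyte oxidase parts, Cybb (3.46-fold, adjusted p = 0.00757), Ncf1 (2.69-fold, adjusted p = 0.00144) and Ncf4 (3.51-fold, adjusted p = 0.00534), were higher in the same libraries as the neutrophil markers given above, whereas Cyba (adjusted p = 0.105) did not pass. The log2 fold change of Cyba was -0.45 with all libraries and -0.81 without articular replicate 1. On the xiphoid side, Maob, a mitochondrial amine oxidase, was 9.15-fold (adjusted p = 1.52e-04) and Xdh, xanthine dehydrogenase, 2.03-fold lower in articular cartilage (adjusted p = 3.19e-04).

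The remaining redox proteins had 6 of 29 tested genes (20.7%) higher in articular and 8 (27.6%) in xiphoid cartilage, against 25.0% and 24.5% of all genes tested. The 6 became 10 without articular replicate 1. The metallothioneins, cysteine-rich proteins that bind zinc and copper, were higher in articular cartilage. Mt3 was at 72.5 ± 13.4 CPM in articular cartilage and 1.17 ± 0.484 CPM in xiphoid cartilage (log2 fold change of 5.97 with an SE of 0.29, adjusted p = 1.03e-08), and Mt1 at 147 ± 64.1 and 24 ± 7.07 CPM (adjusted p = 4.63e-04). Sestrins, which respond to stress and restrain growth signalling, were divided. Sesn2 was 3.02-fold higher in articular cartilage (adjusted p = 1.45e-05) and Sesn1 2.3-fold lower (adjusted p = 8.10e-05). Pon3, a lactonase of lipoproteins and membranes, was 4.77-fold (adjusted p = 1.26e-05) and Aifm2, the ferroptosis suppressor that reduces coenzyme Q, 2.22-fold lower in articular cartilage (adjusted p = 8.11e-05).

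**Figure D4:**
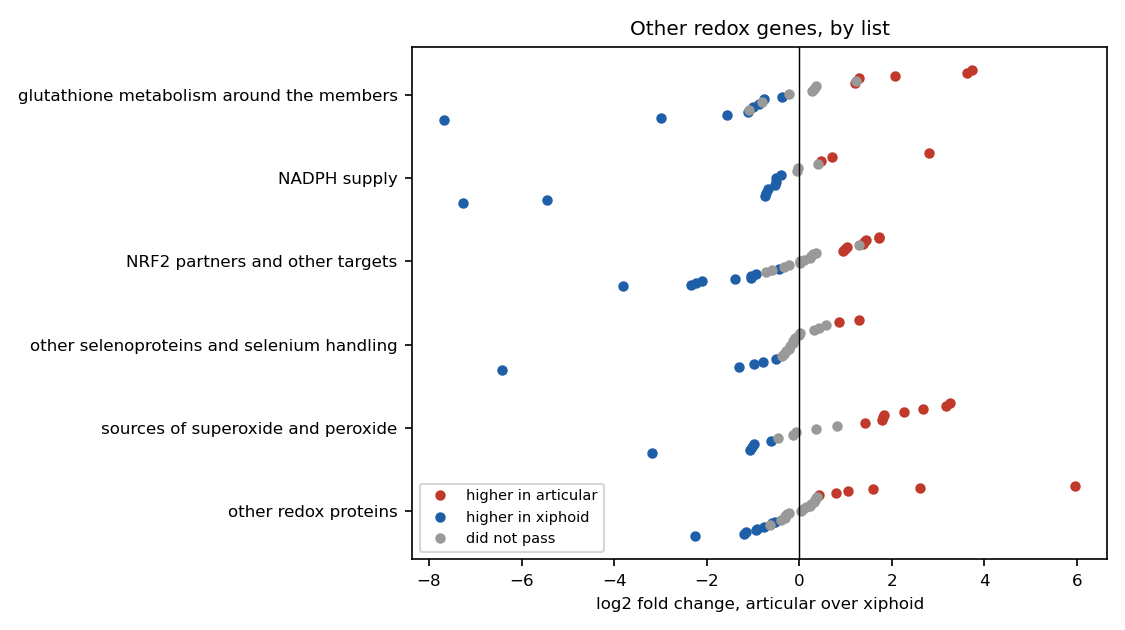
Log2 fold change of articular over xiphoid cartilage for the 131 tested genes of the 6 lists, each gene a point, sorted within its list. Red and blue points passed toward articular and toward xiphoid cartilage, and grey points did not pass. Every list held genes that passed on each side, and the positions of Cbs, Me3 and Dio3, at no more than 2 counts over both articular libraries, depend on the prior count of the fit.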

How the data were processed

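Rat articular and xiphoid cartilage were each profiled in 2 RNA sequencing libraries. Build rn6 and the tools RSEM 1.2.12, Bowtie2 2.2.6, StringTie 1.2.1 and HISAT2 2.0.4 are listed, per the submitters' processing notes, which assign them no roles. The authors deposited expected counts (estimated read counts) per gene and library, not normalized, per the file headers and the values, of which 3.9% were not whole. Whether counting used strand is not given in the sources. Expected counts were rounded, filtered with filterByExpr (11202 of 13554 genes kept), scaled by TMM and tested, articular over xiphoid, with the edgeR 4.0.16 quasi-likelihood test in R 4.3.3 (tissue as the term, Benjamini-Hochberg, threshold 0.05, 2-sided). The SE is the log2 fold change divided by the square root of F. Genes at 0 in a tissue were set against 3 counts over both libraries. Intervals cover counting error only. The procedure was tested on simulated data. Alternatives were RLE and upper-quartile factors, library sizes alone, no filter, a minimum mean CPM of 5, limma-voom (limma 3.58.1), DESeq2 1.42.0, glmTreat at a fold of 1.5, a replicate block, scaling without other cell types' markers, and omitting each library in turn. The members and lists were chosen with earlier results of these data known. In each role group, members that passed with a fold of at least 2 and the member with the highest mean count were to be given by library. In each list, up to 3 called genes per direction with the lowest adjusted p were eligible, and Cybb, Cyba, Ncf1 and Ncf4 were named after their values were seen. Some genes of the lists are not reported here. Promoters and gene order are from RefSeq (GRCr8), and all 59 members matched it by gene ID.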

Additional observations from a re-analysis of the deposited data

How the results depend on the processing

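In 14 alternatives, 23 of the 33 called members kept their direction and their call in every setting, 10 lost the call in at least 1 and none changed sign. Tested against a fold of 1.5 with glmTreat, 19 members were higher in xiphoid cartilage, as were 24 genes of the 6 lists, and 1686 of all genes were higher in articular cartilage and 1538 in xiphoid cartilage. With the replicate number as a block, 7 members were called toward articular and 33 toward xiphoid cartilage. Calls over all 11202 genes tested rose as well, from 2799 to 3344 toward articular and from 2745 to 3484 toward xiphoid cartilage. The labels do not say that the replicate numbers mark an animal or batch, so pairing was not assumed. Same-numbered libraries nevertheless deviated together, with a correlation of 0.304 across 11202 genes between the differences of replicates 2 and 1 in the 2 tissues, and a shared source was not tested. The 7 members gained with the block were Sod1, Sod2, Gpx3, Gstp1, Nfe2l2, Prdx4 and Selenop. Of these, only Prdx4 was also called in another setting that kept all libraries. Leaving out 1 library leaves its tissue with a lone library assumed to vary like the other tissue, so counts of members called there are not given. Members that had not passed and changed sign when a library was left out had log2 fold changes from -0.23 to 0.06 for Prdx1, -0.29 to 0.24 for Gstk1, -1.74 to 0.03 for Gsto2, -0.01 to 0.08 for Txnrd1, -0.45 to 0.05 for Txnrd2, -0.02 to 0.07 for Glrx3, -0.27 to 0.03 for Glrx, -0.28 to 0.07 for Gsr and -0.09 to 0.58 for Gstt2. No scaling moved the median of all genes by more than 0.05 on the log2 scale. The cause of these changes was not tested. The alternatives planned for a table of FPKM or TPM values were not run. With 2 libraries per tissue, the spread between replicates limits every comparison.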
